A study of Homo sapiens with 6 samples.

Results

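The collagen genes of motor neuron cultures are described here under simulated microgravity and at normal gravity. Members were all protein-coding genes whose symbol reads COL, a number, A and a number, and there were 44 of them among the 57820 genes of the count table. They were sorted by structural type into 11 fibrillar, 6 basement membrane, 10 FACIT, 4 transmembrane, 2 multiplexin, 6 type VI and VI-like, 3 short-chain network genes, 1 anchoring fibril gene and the type XXVI gene. The cells came from H9, an established wild-type line of human embryonic stem cells, and had been differentiated from motor neuron progenitors in medium with retinoic acid (RA) and SAG, an agonist of Hedgehog signalling, in both groups. The simulated microgravity group (SMG, 3 libraries) was kept on a 2D clinostat, which rotates the vessel and so averages out the pull of gravity over time, and the normal gravity group (NG, 3 libraries) was labelled only as that. One line was used throughout. Nothing in the labels says that each library had a culture of its own, so every p-value here measures spread among libraries, and that spread may be technical. The labels give no clinostat time.

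Collagens are secreted or membrane proteins whose chains wind around each other in a helix built on repeats that start with glycine. Fibrillar collagens (types I, II, III, V, XI, XXIV and XXVII) form the fibrils of connective tissue. Type IV forms the sheet-like network of basement membranes, and FACIT collagens sit on the surface of fibrils. Type VI makes beaded filaments close to basement membranes, type VII anchors basement membranes to the tissue below, and the multiplexins XV and XVIII are basement membrane proteoglycans. Transmembrane collagens stay in the plasma membrane with their collagen part outside the cell. In the developing nervous system, basement membrane collagens surround the neural tube and cover the muscle surface that motor axons reach, and transmembrane collagens XIII and XXV are known for roles at the neuromuscular junction and in motor innervation of muscle.

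Of the 29 collagen genes that could be tested, 10 changed (34.5%, against 35.8% of all genes tested), in directions that differed by type. The type VI chains COL6A1 and COL6A2 and the type VII gene COL7A1 rose in SMG by 1.29-fold to 1.35-fold. On the log2 scale these rises were 0.37, 0.44 and 0.43. They were smaller, at 0.18, 0.24 and 0.19, once trends with transcript length and GC content were removed. The type IV chains COL4A1, COL4A5 and COL4A6 and the type V chain COL5A2 fell by 1.24-fold to 1.35-fold. COL11A1, COL4A2 and COL25A1 were also lower, with calls that depended on the version of the test.

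Total counts per library ranged from 16329907 to 22685870. Levels are given as CPM, which are counts relative to the library's total after TMM scaling, as mean ± SD with n = 3 per group, and differences as log2 fold changes, SMG minus NG, ± SE. A gene was called when edgeR's quasi-likelihood test gave a Benjamini-Hochberg adjusted p under 0.05 over all 17803 genes tested. Neurons and progenitors were both present, and no marker of either list was under 2 CPM on average. Over all genes tested, 17.3% were called higher and 18.5% lower in SMG. Of 12 motor neuron and neuron markers 6 were higher and 1 lower in SMG, and of 8 neural progenitor markers 0 were higher and 4 lower (edgeR; at an unadjusted p under 0.05, 1 was higher, and DESeq2 and limma-voom called 0 higher). The part of this in the collagen values was not tested, and in bulk RNA fewer cells of a type cannot be told apart from less RNA per cell. Libraries also differed with base composition. Genes whose transcript held 60% GC or more had a median log2 fold change of 0.17, and those under 50% GC one of -0.07. The tested collagens had a median GC content of 59.0%, against 48.3% over all genes tested, so a collagen's value is also given, where its call changed or it moved by over 1.5 times, after each library's trend with transcript length and GC content was removed (length and GC offsets).

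Promoter sequence was found in RefSeq's table (GRCh38.p14) for 32 of the 44 genes. Of these, 3 are shown because their genes are among those that changed in every version of the test: COL4A5, which starts back to back with COL4A6 and fell with it, and COL6A2 and COL7A1, which rose. Each is the run of bases before the start site that lies outside the exons of GENCODE 29. It is written 5′ to 3′ on the gene's strand, with GC boxes (GGGCGG) and CCAAT boxes (CCAAT) on either strand in capitals. COL4A5 is at chrX:108439588-108439837 on the plus strand, COL6A2 at chr21:46097862-46098096 on the plus strand, and COL7A1 at chr3:48595330-48595579 on the minus strand.
COL4A5: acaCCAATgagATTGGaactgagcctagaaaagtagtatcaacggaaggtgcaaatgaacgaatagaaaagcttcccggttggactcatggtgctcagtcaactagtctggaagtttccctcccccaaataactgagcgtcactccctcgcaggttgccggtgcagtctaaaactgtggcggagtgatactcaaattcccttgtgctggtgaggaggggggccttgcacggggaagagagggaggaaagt
COL6A2: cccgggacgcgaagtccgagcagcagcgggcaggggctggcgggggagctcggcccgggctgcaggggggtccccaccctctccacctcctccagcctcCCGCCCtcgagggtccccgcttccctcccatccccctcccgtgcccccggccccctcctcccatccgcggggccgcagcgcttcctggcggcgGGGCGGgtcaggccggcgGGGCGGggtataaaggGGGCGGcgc
COL7A1: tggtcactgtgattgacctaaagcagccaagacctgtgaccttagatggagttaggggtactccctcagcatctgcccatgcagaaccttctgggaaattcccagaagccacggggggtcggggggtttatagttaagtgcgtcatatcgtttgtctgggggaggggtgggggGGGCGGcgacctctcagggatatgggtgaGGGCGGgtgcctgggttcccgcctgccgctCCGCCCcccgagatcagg
The COL6A2 window held 4 GC boxes and the COL7A1 window 3, with no CCAAT box in either, and the COL4A5 window held 2 CCAAT boxes and no GC box. The stretch between the RefSeq starts of COL4A2 and COL4A1, which also fell, held 1 GC box and 1 CCAAT box. The 3 genes were picked with their directions known, and whether such boxes go with direction was not tested. In the 250 bases before any listed start, GGGCGG on either strand was found in 21 of 32 collagen genes (65.6%) and in 46.2% of all 27305 genes with a window, CCAAT in 34.4% and 37.0%, and TATAAA in 21.9% and 13.0%. The letters ACGTG, the core of hypoxia response elements, were found in 18.8% of the collagen genes and in 21.7% of all genes. The set of all genes was not limited to protein-coding genes, as the collagens were, so the 2 sets are not alike. Such matches describe the letters and are not evidence of binding.

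The level of each gene per transcript length ranks the collagen genes of these cultures by RNA, and protein was not measured in these data. COL6A1 stood first, at 61.2 CPM per kb in NG and 79.1 in SMG, followed by COL4A2 (36.5 and 34.1) and COL5A2 (25.4 and 18.8). COL2A1 and COL18A1 lay close together, at 15.2 and 14.2 CPM per kb in NG, and COL6A2 was at 13.9 in NG and 18.8 in SMG. COL4A1 (12.1 in NG), COL4A5 (11.2) and COL26A1 (10.8) came next, and these neighbours were not tested against each other. The classical collagens of connective tissue ranked 23 (COL1A1), 29 (COL1A2) and 33 (COL3A1) of the 44. COL1A1 was at 0.252 CPM per kb in NG and COL1A2 at 0.0866, and COL3A1 had at most 9 counts in any library. On average, 21 of the 44 genes reached 2 CPM and 20 stayed under 1 CPM. No collagen gene was at 0 in all 6 libraries.

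**Figure D1:**
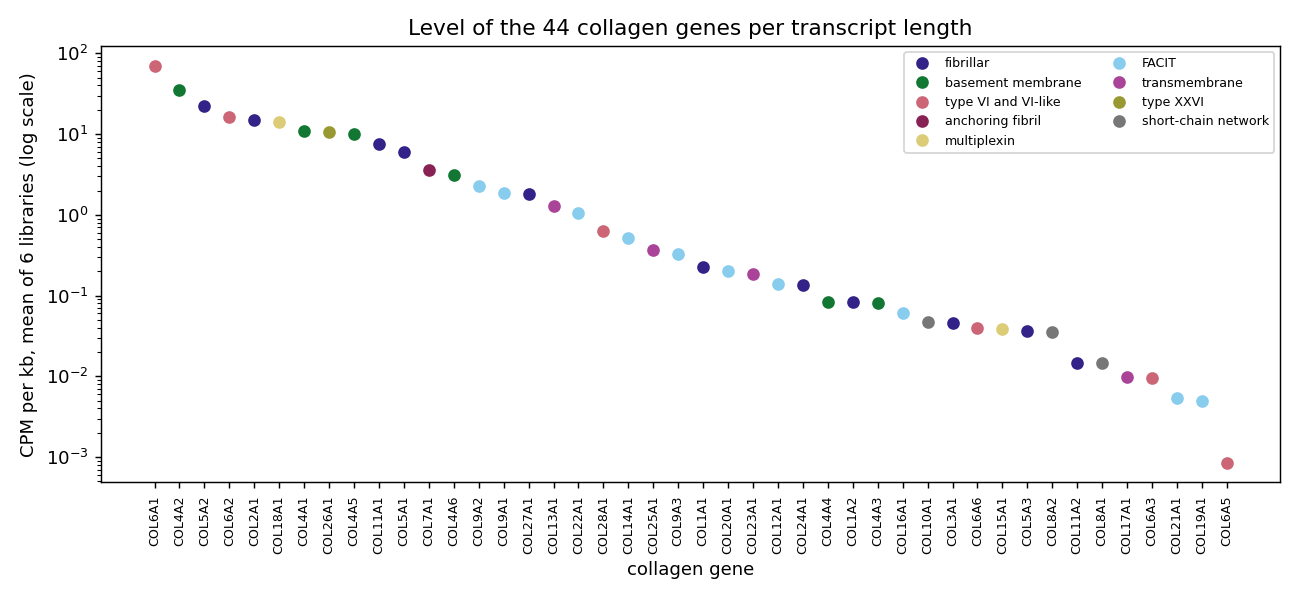
Level of each of the 44 collagen genes as CPM per kb of transcript, mean of 6 libraries, on a log axis and coloured by structural type. COL6A1, COL4A2 and COL5A2 lead, and COL1A2 and COL3A1 lie in the lower part of the range.

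Of the 44 collagen genes, 29 passed edgeR's filter on low counts and were tested. Of these 29, 3 were higher and 7 lower in SMG, and 19 were not called. The called share was 34.5%, against 35.8% of all genes tested, so collagens were not called more often than other genes. Over all genes, 17.3% were called higher and 18.5% lower. The median log2 fold change was -0.07 over the tested collagens and -0.00018 over all genes tested. The groups did not overlap in 11 of the 29, against 46.3% of all genes. After the length and GC offsets, 3 collagens were higher and 12 lower, where 30.8% of all genes were called, 15.1% higher and 15.7% lower. The collagens' median was then -0.20, and that of all genes 0.0030. Of the 7 lower genes 6 were among those 12, and COL25A1 was not. The other 6 of the 12 were COL2A1, COL5A1, COL27A1, COL18A1, COL22A1 and COL26A1. In all 18 alternative versions of the test, 4 genes stayed lower (COL5A2, COL4A1, COL4A5 and COL4A6) and 3 stayed higher (COL6A1, COL6A2 and COL7A1). The calls of COL4A2, COL25A1 and COL11A1 ended in 14, 8 and 3 of the alternatives.

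**Figure D2:**
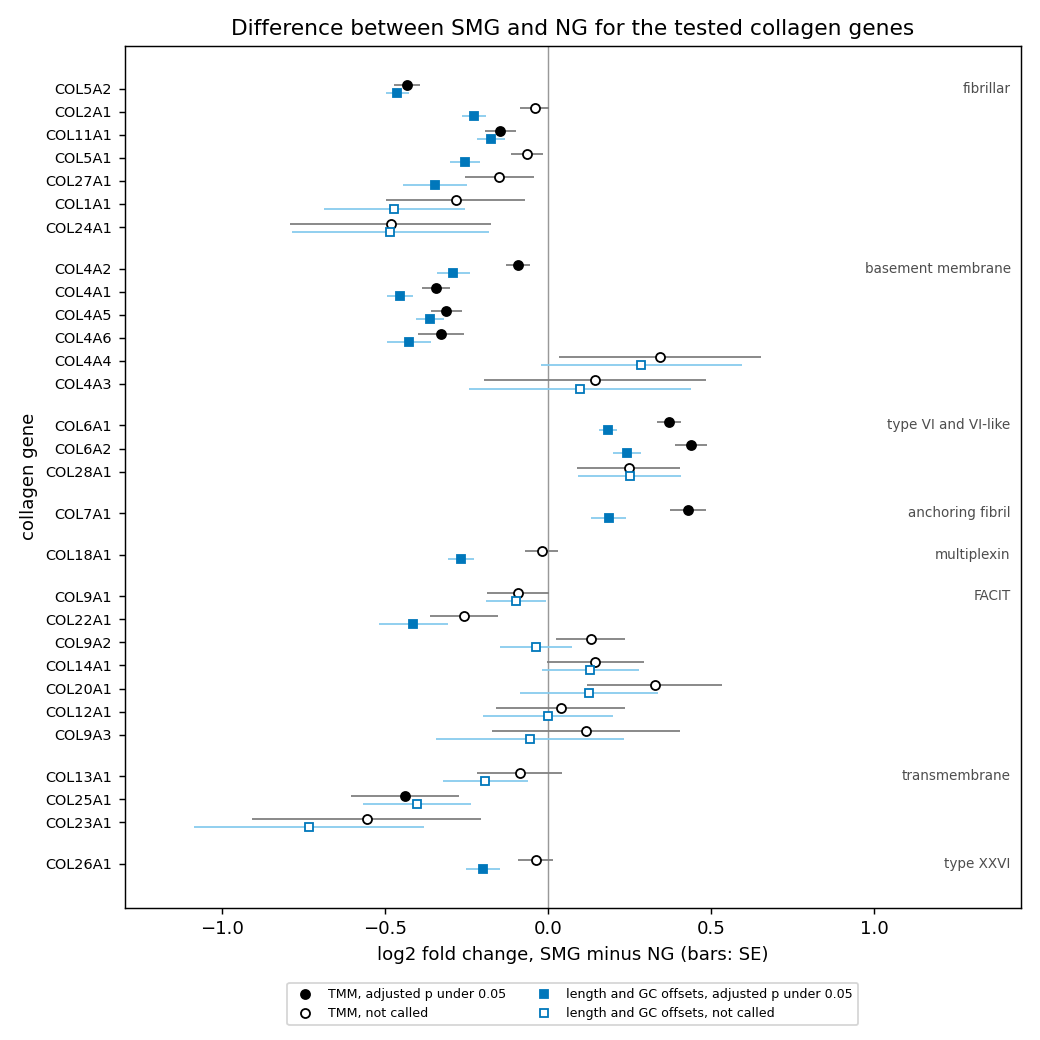
Log2 fold change (SMG minus NG) of the 29 tested collagen genes by type, with bars for the SE. Circles are the TMM-scaled test and squares the test with length and GC offsets, filled where the adjusted p was under 0.05. Most squares lie to the left of their circles, and COL6A1, COL6A2 and COL7A1 stay to the right of 0.

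The fibrillar group had 11 members, of which 7 were tested, 0 were higher and 2 lower (28.6% called, against 35.8% of all genes tested). At an unadjusted p under 0.05 the edgeR counts were also 0 and 2, while DESeq2 called 0 and 1 and limma-voom 0 and 2. COL5A2 encodes a chain of type V collagen, which helps to start fibrils. It was at 174, 173 and 191 CPM in the NG libraries and at 130, 130 and 139 in the SMG libraries. All SMG libraries were below all NG libraries, and COL5A2 fell by 0.43 on the log2 scale (log2 fold change -0.43 ± 0.04, edgeR adjusted p = 2.47e-09). COL5A1, which encodes the partner chain of type V, was at 52.9, 52.0 and 52.1 CPM in NG and at 46.7, 50.7 and 52.6 in SMG, with groups that overlapped (-0.07 ± 0.05, adjusted p = 0.332). Once the offsets were applied, COL5A1 was at -0.25 (adjusted p = 6.27e-05; 6.27e-05 to 0.833 over the alternatives).

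COL11A1 encodes a chain of type XI collagen, which sits in the core of type II fibrils and can assemble with type V chains. Its libraries were at 56.6, 56.8 and 58.9 CPM in NG and at 51.4, 50.1 and 54.0 in SMG. They did not overlap, and COL11A1 was lower by a small amount (-0.15 ± 0.05, adjusted p = 0.0156), a call that ended without SMG replicate 1 (adjusted p = 0.0537), without SMG replicate 2 (0.0912) and with DESeq2 (0.0502). COL2A1, the gene of the type II collagen of cartilage that is also made in the embryonic neural tube, was at 77.9, 79.6 and 73.9 CPM in NG and at 72.6, 78.2 and 74.1 in SMG. These overlapped, and COL2A1 was not called (-0.04 ± 0.04, adjusted p = 0.494), but it was called lower with length and GC offsets (-0.23, adjusted p = 1.63e-05; up to 0.815 over the alternatives).

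COL27A1, a fibrillar collagen of growing cartilage, was at 17.1, 13.2 and 13.5 CPM in NG and at 11.2, 14.1 and 14.5 in SMG. The groups overlapped and it was not called (-0.15 ± 0.11, adjusted p = 0.298; -0.35 with offsets, adjusted p = 0.0102, and up to 0.964 over the alternatives). COL1A1, the main chain of type I collagen, was at 1.69 ± 0.120 CPM in NG and at 1.38 ± 0.289 in SMG, with overlap (-0.28 ± 0.21, adjusted p = 0.324; -0.47 with offsets). COL24A1 was weaker still and not called (-0.48 ± 0.31; -0.74 to -0.15 with 1 library left out). COL1A2, COL3A1, COL5A3 and COL11A2 had too few counts to be tested. Type I and III collagen are made in bulk by fibroblasts. Of 10 mesenchyme and fibroblast markers none reached a mean of 2 CPM and 9 were under 1 CPM, and their summed level was 3.29 to 4.20 CPM in NG and 3.02 to 3.05 CPM in SMG. Among its 4 tested genes PDGFRB was lower (-0.79 ± 0.26) and 0 were higher, with the same counts at an unadjusted p, while DESeq2 called none. LUM and DCN, its matrix genes, were near 0, with means of 0.0718 and 0.0236 CPM over the libraries.

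The basement membrane group had 6 members, all tested, with 0 higher and 4 lower (66.7% called, against 35.8% of all genes tested). The edgeR counts at an unadjusted p were the same, and DESeq2 and limma-voom each called 0 higher and 3 lower. COL4A1 and COL4A2 encode the chains of the ubiquitous type IV network. COL4A1 was at 78.1, 80.1 and 82.7 CPM in NG and at 62.3, 62.1 and 65.0 in SMG. Every SMG library was below every NG library (-0.34 ± 0.04, edgeR adjusted p = 3.36e-07; -0.45 with length and GC offsets). COL4A2, the more abundant of the pair, was at 224, 240 and 246 CPM in NG and at 213, 227 and 225 in SMG, and its groups overlapped (-0.09 ± 0.04, adjusted p = 0.0488). That call ended in 14 of 18 alternatives, among them each version without NG replicate 2 or 3 or without any SMG replicate, and the adjusted p reached 0.268. Under the offsets COL4A2 was at -0.29 (adjusted p = 0.00228; from 9.31e-07 to 0.268 over the alternatives). GENCODE lists antisense genes that share exon sequence with COL4A2. COL4A2-AS1 was at 0.294 CPM in NG and at 0.441 in SMG, against 237 and 222 CPM for COL4A2.

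COL4A5 and COL4A6 encode chains of the type IV networks found in some epithelial and smooth muscle basement membranes. COL4A5 was at 71.0, 69.0 and 77.2 CPM in NG and at 56.9, 59.2 and 58.6 in SMG, without overlap (-0.31 ± 0.05, adjusted p = 5.68e-06). COL4A6 was at 21.4, 24.5 and 24.4 CPM in NG and at 17.9, 18.1 and 19.7 in SMG, also without overlap (-0.33 ± 0.07, adjusted p = 4.85e-04). The offsets put them at -0.36 and -0.43. COL4A3 and COL4A4, whose chains assemble with that of COL4A5 in the kidney glomerulus, were weak, at means of 0.622 and 0.729 CPM in NG and 0.680 and 0.962 in SMG. Neither was called (0.15 ± 0.34 and 0.34 ± 0.31), and leaving out 1 library moved COL4A3 between 0.01 and 0.42 and COL4A4 between 0.11 and 0.80.

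The type IV genes lie in 3 head-to-head pairs. By the RefSeq starts (GRCh38.p14), 126 bases on chromosome 13 separate the starts of COL4A1 and COL4A2, a stretch with 1 GC box, 1 CCAAT box and 80.2% GC. GENCODE 29 places exons within that stretch, so its limits depend on the annotation. On chromosome X, 379 bases separate COL4A5 from the nearer start of COL4A6, and on chromosome 2, 418 bases separate COL4A3 from COL4A4. The ratio of the counts of paired genes within a library needs no scaling between libraries. COL4A1 had 0.348, 0.334 and 0.336 counts per COL4A2 count in the NG libraries and 0.292, 0.274 and 0.289 in the SMG libraries. The groups did not overlap, and the ratio was lower in SMG by 0.25 on the log2 scale (log2 difference -0.25, or -0.16 with length and GC offsets). COL4A6 had 0.325 ± 0.0277 counts per COL4A5 count in NG and 0.319 ± 0.0148 in SMG, with overlapping groups and a log2 difference of -0.02. For 3 against 3 libraries the smallest two-sided p of an exact permutation test is 0.1, which COL4A1 per COL4A2 reached, while COL4A6 per COL4A5 gave an exact permutation p = 0.8. Over the 5 ratios computed, the Benjamini-Hochberg adjusted p was 0.125 for each ratio at the smallest p and 0.8 for COL4A6 per COL4A5, so none could pass 0.05.

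Type VI and VI-like genes had 6 members, of which 3 were tested, with 2 higher and 0 lower (66.7% called, against 35.8% of all genes). DESeq2, limma-voom and edgeR at an unadjusted p gave the same counts. COL6A1 and COL6A2 encode the short chains of type VI collagen. COL6A1 was at 266, 270 and 241 CPM in NG and at 332, 340 and 334 in SMG, with no overlap (0.37 ± 0.04, edgeR adjusted p = 7.77e-09). COL6A2 was at 47.8, 51.2 and 44.8 CPM in NG and at 64.0, 66.5 and 64.3 in SMG, again without overlap (0.44 ± 0.05, adjusted p = 6.30e-08). Both are GC-rich (63.5% and 66.4%), and with length and GC offsets they stayed higher by less, at 0.18 and 0.24 (adjusted p = 2.97e-06 and 3.27e-05). COL6A2 had 0.185 ± 0.00521 counts per COL6A1 count in NG and 0.194 ± 0.00141 in SMG. The ratio was slightly higher in SMG without overlap (log2 difference 0.07, exact permutation p = 0.1, the smallest possible).

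The long chain that completes the usual type VI molecule, COL6A3, had 2, 1 and 0 counts in the NG libraries and 4, 5 and 1 in the SMG libraries. A difference in COL6A3 was not detectable at this depth, while COL6A1 had 3959 to 7616 counts per library. COL6A5 and COL6A6, which encode alternative long chains, had 1 and 46 counts over all 6 libraries. COL28A1, a type VI-like collagen found around glial cells of peripheral nerves, was at 2.45, 2.28 and 2.62 CPM in NG and at 2.88, 2.74 and 3.11 in SMG. Its groups did not overlap, but it was not called (0.25 ± 0.16, adjusted p = 0.236).

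**Figure D3:**
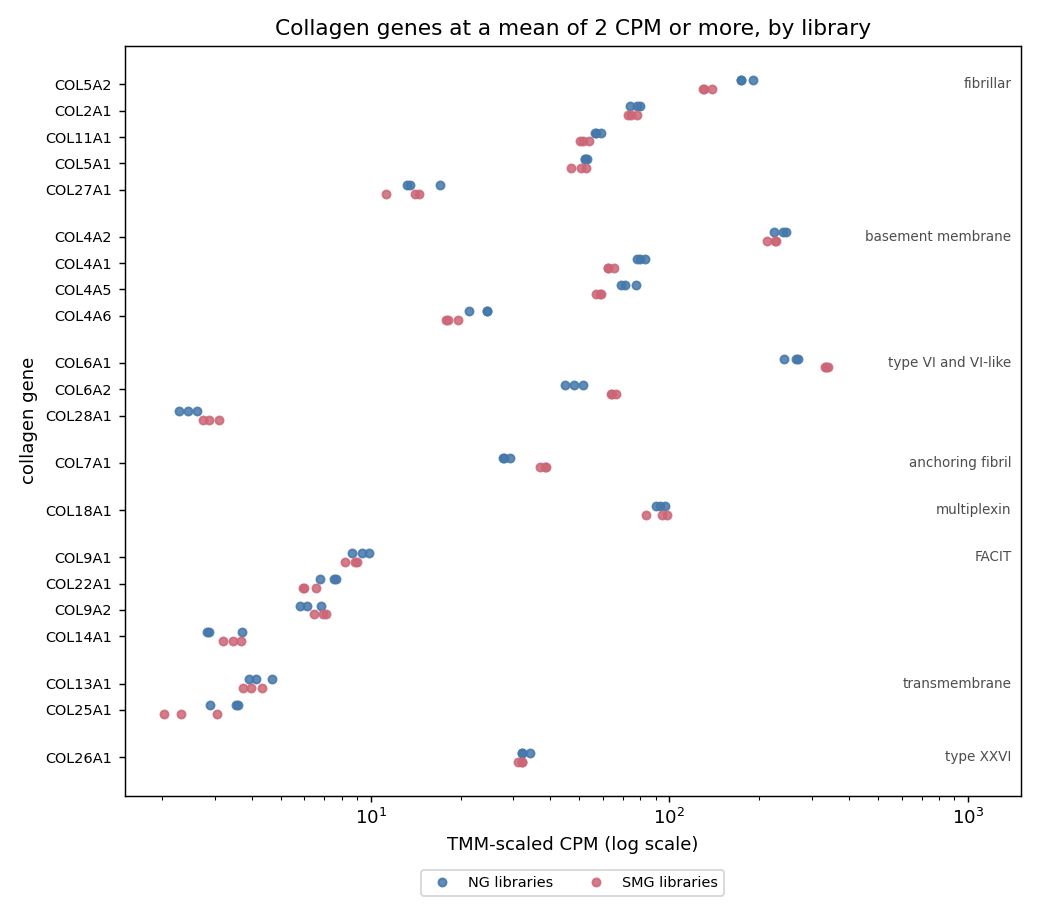
CPM of the 21 collagen genes with a mean of at least 2 CPM, on a log axis, by structural type. Points are single libraries, 3 NG and 3 SMG for each gene, and the SMG points of COL5A2, COL4A1, COL4A5 and COL4A6 lie left of the NG points while those of COL6A1, COL6A2 and COL7A1 lie right of them.

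COL7A1 encodes the collagen of anchoring fibrils, best known from skin. It was at 27.7, 29.2 and 28.0 CPM in NG and at 38.4, 38.8 and 37.0 in SMG. The groups did not overlap, and COL7A1 rose (0.43 ± 0.05, edgeR adjusted p = 4.68e-07). The rise was less with length and GC offsets, at 0.19 (adjusted p = 0.00754; 2.27e-12 to 0.0123 over the alternatives). Epithelial cells are the usual source of type VII collagen. The surface epithelium markers summed to 11.8 to 14.1 CPM in NG and 9.28 to 10.7 CPM in SMG. KRT8 gave most of this sum (8.54 CPM in NG and 6.56 in SMG), and KRT5 was at 0 in every library. Of the 4 tested, edgeR called 0 higher and 2 lower, and DESeq2 called 1 lower. The 2 were KRT8 (-0.39 ± 0.11) and CDH1 (-1.63 ± 0.42, at a mean of 0.436 CPM). The part of these markers in the COL7A1 values was not tested.

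Of the multiplexins, COL18A1, which carries the endostatin fragment at its end, was among the most abundant collagens. It was at 93.2, 97.1 and 90.1 CPM in NG and at 83.5, 98.3 and 94.5 in SMG. The SMG libraries spanned the NG range and COL18A1 was not called (-0.02 ± 0.05, adjusted p = 0.796). Under the offsets it was called lower (-0.27, adjusted p = 6.22e-06; 4.37e-06 to 0.999 over the alternatives). COL18A1 has the highest GC content of the abundant collagens (67.2%), and SLC19A1, at 15.1 CPM in NG and 18.4 in SMG, overlaps it on the opposite strand. No source used here says whether the counting used strand, so the COL18A1 value is uncertain. COL15A1 had 26 counts in all and was not tested. COL26A1, the type XXVI gene, was at 32.2, 34.1 and 32.1 CPM in NG and at 31.2, 32.2 and 32.2 in SMG. These overlapped and were not called (-0.04 ± 0.05, adjusted p = 0.626; -0.20 with offsets, adjusted p = 0.00281, and up to 0.909 over the alternatives).

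Of the 10 FACIT genes 7 were tested, and 0 passed edgeR's test. At an unadjusted p under 0.05 there was 1, COL22A1, and DESeq2 and limma-voom also called 0. COL9A1, of type IX collagen, was at 9.33, 9.85 and 8.66 CPM in NG and at 8.87, 8.22 and 9.02 in SMG (-0.09 ± 0.09). COL9A2, of the same molecule, was at 6.13, 5.79 and 6.83 CPM in NG and at 6.47, 7.09 and 6.92 in SMG (0.13 ± 0.11). Both overlapped between groups, and COL9A2 turned negative under the offsets (-0.04). COL22A1, a collagen of tissue junctions such as that of muscle and tendon, was at 7.54, 6.77 and 7.68 CPM in NG and at 6.56, 5.97 and 5.91 in SMG. All SMG libraries were below the NG libraries, and COL22A1 fell just short of the threshold (-0.26 ± 0.11, adjusted p = 0.0566). It was called with length and GC offsets (-0.41, adjusted p = 0.0030) and without NG replicate 2 (-0.31, adjusted p = 0.0406), with a range of 0.0030 to 0.191 over the alternatives. COL14A1, found on the fibrils of skin and tendon, was at 2.88, 2.83 and 3.72 CPM in NG and at 3.21, 3.46 and 3.68 in SMG, with overlap (0.14 ± 0.15). COL20A1 (0.33 ± 0.21, or 0.12 with offsets), COL12A1 (0.04 ± 0.20) and COL9A3 (0.12 ± 0.29) were weaker, overlapped and were not called, and the last of these turned to -0.06 and COL12A1 to -0.00020 under the offsets. COL16A1, COL19A1 and COL21A1 were not tested.

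Of the 4 transmembrane collagens 3 were tested, and edgeR called 0 higher and 1 lower, as it did at an unadjusted p. The called share was 33.3%, against 35.8% of all genes tested. DESeq2 called none and limma-voom 1 lower. COL25A1 encodes a membrane collagen that is required in muscle for motor innervation and whose shed part binds amyloid. It was at 3.58, 2.89 and 3.54 CPM in NG and at 2.03, 3.05 and 2.32 in SMG. SMG replicate 2 lay above NG replicate 2, so the groups overlapped, and the call was weak (-0.44 ± 0.17, adjusted p = 0.0399). It ended without NG replicate 1 or 3, without SMG replicate 1 or 3, with DESeq2, without a filter on low counts and with length and GC offsets (-0.40; also with a replicate block), with adjusted p from 0.0121 to 0.181 over the alternatives. COL13A1, a collagen of the neuromuscular junction, was at 4.67, 4.13 and 3.90 CPM in NG and at 3.73, 4.31 and 3.99 in SMG, with overlap (-0.09 ± 0.13, adjusted p = 0.649; -0.19 with offsets). COL23A1 was under 1 CPM in every library and not called, though its groups did not overlap (-0.56 ± 0.35), and COL17A1 had 7 counts in all.

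The 15 untested collagens had 0 to 12 counts in a library and 1 to 53 in all 6 together. Besides those named above they include the short-chain network genes COL8A1, COL8A2 and COL10A1, with 10, 19 and 20 counts in all. Differences in these genes were not detectable at this depth.

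The summed level of all 44 genes was 1288, 1316 and 1304 CPM in NG and 1256, 1311 and 1311 CPM in SMG, and the groups overlapped. Its make-up by type differed between the groups. Fibrillar genes held 29.5% ± 0.719 of the collagen CPM in NG and 25.2% ± 0.487 in SMG, and basement membrane genes 31.8% ± 1.19 and 28.1% ± 0.123. Type VI and VI-like genes held 23.8% ± 1.44 in NG and 31.2% ± 0.573 in SMG. In NG the type VI share was below the fibrillar and the basement membrane share, and in SMG it was above both. These shares count reads and are not corrected for transcript length or GC content, and they are descriptions without a test. With length and GC offsets the log2 fold changes of COL6A1 and COL6A2 were 0.18 and 0.24, against 0.37 and 0.44 without. That of COL5A2 was -0.46 with offsets and -0.43 without. Mean COL6A1 was 259 CPM in NG and 335 in SMG, and mean COL5A2 180 and 133. FACIT genes held 2.32% ± 0.0767 in NG and 2.31% ± 0.0860 in SMG.

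The fibrillar genes were also set against COL5A2 within each library. COL5A2 was chosen for this because it had been called lower, so these ratios restate its values and do not show which gene moved. COL5A1 had 0.292 ± 0.0174 counts per COL5A2 count in NG and 0.376 ± 0.0164 in SMG. COL11A1 had 0.326, 0.327 and 0.308 counts per COL5A2 count in NG and 0.395, 0.386 and 0.389 in SMG. Neither ratio overlapped between groups, and the log2 differences were 0.37 and 0.28 (exact permutation p = 0.1 each, the smallest that 3 against 3 libraries allow). The offsets gave 0.21 and 0.29.

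**Figure D4:**
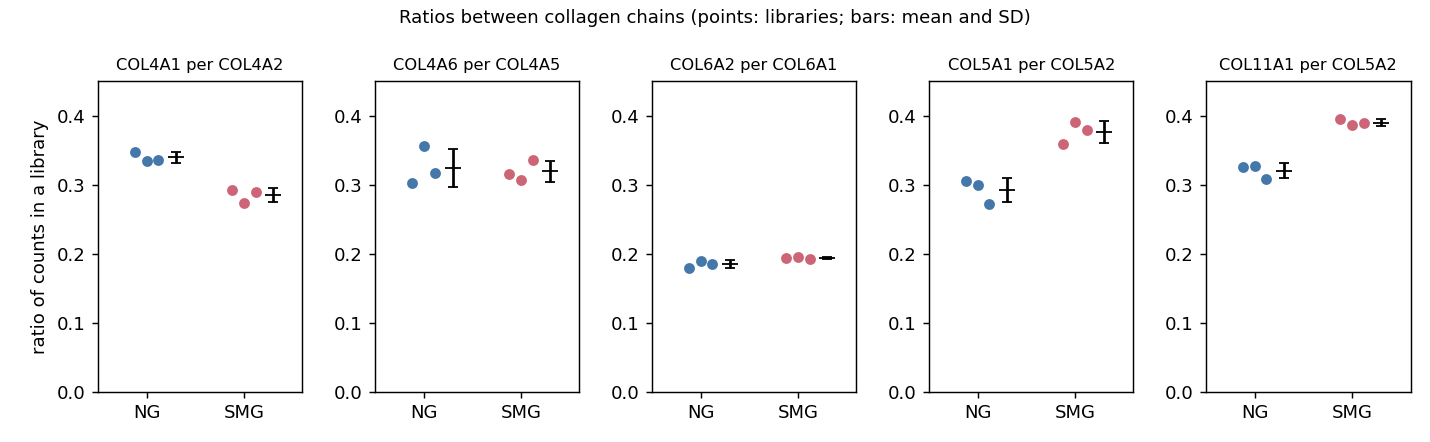
Ratio of counts between collagen genes within each library, for 3 NG and 3 SMG libraries, with the mean and SD beside the points. COL4A1 per COL4A2 is lower in every SMG library, COL4A6 per COL4A5 overlaps, and both ratios over COL5A2 are higher in every SMG library.

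Genes that make, bind or break down collagen were taken from 8 lists. Their counts stand beside shares of 17.3% called higher and 18.5% called lower over all genes tested. With length and GC offsets those shares were 15.1% and 15.7%, and no list was tested as a set. The proteins that hydroxylate and fold new chains held the largest changes among the tested genes of these lists. Of 18 genes 17 were tested, with 2 higher and 10 lower and a median of -0.14. PLOD2, a lysyl hydroxylase that directs collagen crosslinks, was at 113, 115 and 115 CPM in NG and at 27.3, 26.9 and 24.4 in SMG (-2.13 ± 0.05, edgeR adjusted p = 6.08e-24). P4HA1, the catalytic subunit of prolyl hydroxylase that stabilises the collagen helix, went from 166 ± 12.2 to 52.3 ± 2.03 CPM (-1.66 ± 0.05), P4HA2 from 30.1 ± 1.47 to 15.1 ± 0.171 CPM (-0.99 ± 0.06) and PLOD1 from 50.2 ± 2.60 to 31.5 ± 1.62 CPM (-0.67 ± 0.05). These falls were larger than that of any called collagen gene. Under the offsets the list had 1 higher and 10 lower.

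Of 15 genes that process and crosslink procollagen, 13 were tested, 3 were higher and 4 lower. Only 2 were lower without NG replicate 1, NG replicate 2 or any SMG replicate, and also with DESeq2, library-size scaling or no filter. LOX, the lysyl oxidase that starts crosslinks, was at 6.18, 7.27 and 6.64 CPM in NG and at 2.64, 2.92 and 3.20 in SMG (-1.19 ± 0.13, adjusted p = 2.76e-08). Its relative LOXL2 was at -0.41 ± 0.08, and ADAMTS2, which removes the amino-terminal propeptide, at -0.37 ± 0.15 (adjusted p = 0.0441, from 14.9 and 3.53 CPM in NG). The ADAMTS2 call ended without NG replicate 1 or 2 or any SMG replicate, and with DESeq2, library-size scaling, no filter and the replicate block (adjusted p up to 0.185). BMP1, which removes the carboxy-terminal propeptide, rose from 61.9 ± 4.37 to 77.3 ± 2.27 CPM (0.32 ± 0.05), or 0.14 with length and GC offsets. PXDN, the most abundant gene of this list, was also higher, at 389 ± 14.5 CPM in NG and 458 ± 8.76 in SMG (0.24 ± 0.03, or 0.13 with offsets). LOXL1 was higher (0.22 ± 0.06, or 0.05 with offsets) and LOXL3 lower (-0.15 ± 0.05). All 11 procollagen export genes were tested, with 1 higher and 4 lower, or 1 lower without SMG replicate 2 and 2 lower without NG replicate 1. KLHL12, an adaptor for large transport vesicles, was at -0.22 ± 0.05, SEC23A at -0.15 ± 0.04, the cargo receptor MIA3 at -0.12 ± 0.04 and TRAPPC2 at 0.22 ± 0.06. With offsets SEC23A was no longer called (-0.06), and 2 of the list were lower. The MIA3 call ended without NG replicate 1 or SMG replicate 2 and with offsets plus the block, and that of SEC23A without SMG replicate 2.

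Of 12 collagen receptors 9 were tested, with 2 higher and 1 lower, and 2 were lower without NG replicate 3. The integrin subunit ITGB1 was at -0.13 ± 0.03 and the adhesion receptor ADGRG1, which binds type III collagen in the brain, at 0.11 ± 0.04. Under the offsets neither was called (-0.04 and -0.01), and the ADGRG1 call ended without NG replicate 1 or 3 or SMG replicate 1 or 3. The second higher gene, the integrin subunit ITGA10, was below the level set for naming and was chosen after its values were seen. ITGA10 went from 0.935 ± 0.239 to 1.93 ± 0.0899 CPM (1.08 ± 0.23). DDR1, a collagen-binding kinase, was under the filter, and LAIR1 had no counts.

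Of 15 genes of collagen breakdown and its inhibition, 10 were tested, with 3 higher and 4 lower, or 2 lower without SMG replicate 1. The inhibitors TIMP1 (-0.37 ± 0.09) and TIMP3 (-0.31 ± 0.05) and the membrane collagenase MMP14 (-0.36 ± 0.11) were lower, and the lysosomal protease CTSK (0.40 ± 0.12) was higher, though not with DESeq2 (adjusted p = 0.0577). The inhibitor TIMP2, the most abundant TIMP gene here, was higher, at 276 ± 4.54 CPM in NG and 313 ± 5.35 in SMG (0.18 ± 0.03). MMP15 was also called higher (0.27 ± 0.05, or 0.06 with length and GC offsets) and MMP16 lower (-0.12 ± 0.04). The MMP14 call ended without NG replicate 2, SMG replicate 1 or SMG replicate 3. The secreted collagenases MMP8 and MMP13 had no counts. Of 15 matrix partners, 8 were tested, with 1 higher and 3 lower. NID1, which links type IV collagen to laminin, fell from 47.0 ± 2.49 to 35.5 ± 1.07 CPM (-0.41 ± 0.05). SPARC and SPARCL1, collagen-binding glycoproteins, were at -0.18 ± 0.04 and -0.43 ± 0.05. The basement membrane proteoglycan AGRN was at 0.39 ± 0.08, or 0.13 with length and GC offsets.

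Of 24 other proteins with a collagen domain, 10 were tested, with 0 higher and 2 lower, also by DESeq2 and limma-voom (0 and 3 at an unadjusted p). They were GLDN (-0.54 ± 0.12), which clusters sodium channels at nodes of Ranvier, and EMID1 (-0.36 ± 0.09). Of 13 genes of the TGF-beta pathway, which raises collagen synthesis in many tissues, 11 were tested, with 2 higher and 3 lower, or 1 higher without NG replicate 1 or SMG replicate 1 and with DESeq2. SMAD7, an inhibitor of the pathway, was at -0.57 ± 0.09, TGFB2 at -0.18 ± 0.05, SMAD3 at -0.16 ± 0.04 and the target CCN2 at 0.39 ± 0.13. The TGFB2 call ended without SMG replicate 1 and with offsets (-0.10), and the CCN2 call without NG replicate 3 and with DESeq2.

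**Figure D5:**
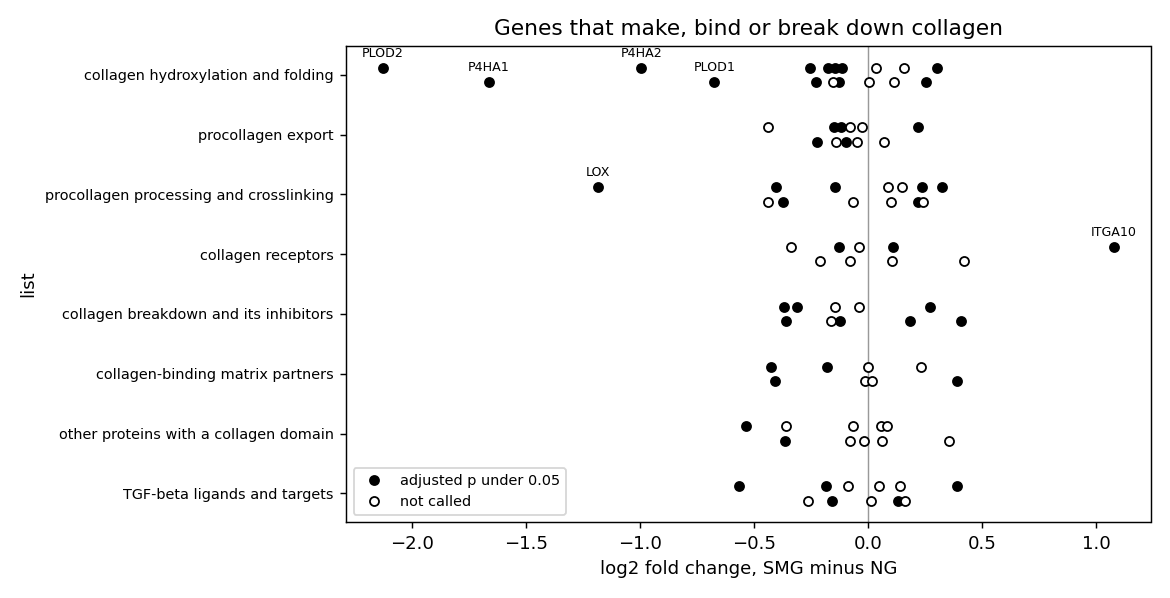
Log2 fold change (SMG minus NG) of each tested gene in 8 lists of genes that act on collagen, filled where edgeR's adjusted p was under 0.05. PLOD2, P4HA1, P4HA2, PLOD1 and LOX lie at -0.67 or below, and most other genes lie between -0.5 and 0.5.

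Markers of other cell types differed widely in level. The cartilage and notochord markers summed to 13.1 to 13.9 CPM in NG and 15.4 to 15.8 CPM in SMG, of which CHRD gave most, with TBXT at 0 and 5 of 7 genes under 1 CPM. Endothelium and pericyte markers summed to 7.12 to 8.01 CPM in NG and 6.42 to 6.89 CPM in SMG, and skeletal muscle markers to at most 1.12 CPM in any library. Among neural crest and Schwann markers SOX10 had a mean of 0.400 CPM over the libraries, and the summed level of that list is not reported here. Astrocyte and oligodendrocyte markers summed to 54.9 to 56.3 CPM in NG and 49.6 to 52.1 in SMG, floor and roof plate markers to 130 to 140 and 134 to 141, and pluripotency markers to 83.5 to 89.5 and 74.1 to 81.1. NTN1 gave most of the floor and roof plate sum (129 CPM in NG and 134 in SMG), with FOXA2 at a mean of 0.0335 CPM. SLC1A3 gave most of the astrocyte and oligodendrocyte sum (44.3 CPM in NG and 39.7 in SMG), with GFAP at a mean of 0.174 CPM. LIN28A and DPPA4 gave most of the pluripotency sum, with POU5F1 at a mean of 0.0741 CPM and NANOG at 0.0695. The part of these markers in the collagen values was not tested.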

How the data were processed

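The deposited table holds raw counts per Ensembl gene and library, made by the authors. Per the submitters' processing notes, the tools were HISAT2, SAMtools, featureCounts and DESeq2 and the build was hg19. No source used here gives tool versions, the annotation, the strand setting or the handling of multi-mapping reads. Symbols came from a table of gene names (51996 of 57820 genes) and then GENCODE 29 (52338), which also gave gene types, exon overlap and the length and GC content of the longest transcript, coding where there was one. GENCODE 29 is on another build, so only names and these properties were used. Groups were read from the sample titles.

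Counts were filtered with edgeR's filterByExpr, TMM-scaled, and SMG was compared with NG by edgeR's quasi-likelihood test with robust estimation, and p-values were adjusted by Benjamini and Hochberg over all 17803 genes. Each SE was the absolute log2 fold change divided by the square root of that test's F statistic, so it restates the test. At the depth of these libraries, genes averaging at least 10 CPM had a median log2 SE of 0.0524. No libraries within a group were duplicates (1.59 to 3.37 for the chi-square divided by its degrees of freedom). Each was entered as a sample, but this value does not show that each had a culture of its own.

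Alternatives used DESeq2, limma-voom, other scalings, filters and gene sets, no robust estimation, a replicate block, natural splines of transcript length and GC content as offsets, and each library left out. The procedure was also run on simulated counts that held no trend with GC content between groups, unlike these libraries, and the outcome is not reported here. Collagens with a mean of at least 2 CPM are given by library, weaker ones by mean or range, and from each other list up to 4 called genes with a mean of at least 2 CPM and the largest changes are named; genes given beyond this rule, such as those named as not called or near 0, were picked after their values were seen. Values of some list genes are not reported here. The members, the lists and the alternatives were chosen with earlier results of these data known. Software was edgeR 4.0.16, DESeq2 1.42.0 and limma 3.58.1 in R 4.3.3.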

Additional observations from a re-analysis of the deposited data

How the results depend on the processing

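The 3 higher collagens were higher in all 18 alternatives. The count of lower collagens, 7, was 4 with DESeq2, 12 with length and GC offsets and 12 with those offsets and the replicate block, and 4 to 7 when 1 library was left out (4 without SMG replicate 1); the causes were not tested. The replicate block alone gave 3 and 7. Same-numbered libraries did not deviate together (r = -0.02, 0.04 and -0.01), so the numbers were not read as pairs. Values that changed sign were all of genes not called, except ADGRG1. With offsets, and with offsets and the block, they were COL9A2 at -0.0371 and -0.0418, COL12A1 at -0.00020 and -0.0016, COL9A3 at -0.0561 and -0.0277, and ADGRG1 at -0.0119 and -0.0114. With 1 library left out, COL12A1 ranged from -0.0044 (without SMG replicate 3) to 0.0619, COL9A3 from -0.0575 (without NG replicate 3) to 0.262, COL18A1 from -0.0696 to 0.0461 (without SMG replicate 1; 0.0064 without NG replicate 2), and COL13A1 from -0.142 to 0.0014 (without NG replicate 1). Of 517 values of collagens under alternatives, 468 kept their direction and side of the threshold. The filter of 1 CPM gives no value for 5 weak collagens. No scaling moved the median of all genes by more than 0.020. Depth limits the 15 untested genes.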
